A study of Drosophila melanogaster with 3 samples.

Results

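Stripe, the product of the gene sr, was mapped by chromatin immunoprecipitation and sequencing in whole Drosophila embryos aged 8 to 24 hours, and the peaks described here are those whose summit lay in an exon away from promoters. A summit was the base that the authors marked as the top of a peak. Of the 4041 peaks of the authors' conservative joint list on the chromosome arms, 300 met the rule. Their summits fell inside an annotated exon and over 500 bp from the transcription start sites (TSSs) of all protein-coding genes. They made up 7.42% of the list (95% Wilson interval 6.66 to 8.27). By class, 113 lay in coding sequence, 40 in a 5′ UTR, 54 in a 3′ UTR and 93 in an exon of a non-coding gene. The only group was embryos of the strain sr-GFP, whose inserted transgene makes Stripe fused to eGFP, and it held 3 libraries labelled as biological replicates. The fusion protein was pulled down with an anti-GFP antibody. No untagged or other genotype was present, so no condition was compared. Whole embryos were used, so the share of cells that bind a site and the binding per cell cannot be told apart.

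Stripe belongs to the early growth response (EGR) family, whose members read DNA through zinc fingers that each contact a few neighbouring bases. In the fly embryo it directs epidermal cells at muscle attachment sites to become tendon cells. Transcription factors bind mostly in promoters, introns and intergenic sequence. A site in a coding exon has to fit the codons of the protein, whereas one in a UTR or a non-coding transcript is free of that constraint.

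The base sequence near the summit is shown for 9 exonic peaks that held the EGR core, taken here as GTGGGCG or GTGGGTG on either strand within 100 bp of the summit. Each line gives 30 bases of the dm6 reference, 5′ to 3′ on the strand where the core reads forward, with the core nearest to the summit in capitals. The 9 were taken from the 12 strongest members and the 3 strongest of each exon class, and they show which bases flank the core. The peaks of Vrp1 and otp, which also held a core, are not shown.
Ask1 (5′ UTR, chr3R:19880752-19880781, minus strand): tgagtgtttgcGTGGGCGtgctcgcatttg
lncRNA:CR45054 (non-coding, chr3R:10089547-10089576, plus strand): gcagcttttgcGTGGGCGgcttagggcagc
lncRNA:CR44331 (non-coding, chr3R:8113565-8113594, plus strand): cgagagagtggGTGGGCGataggtggtggt
lncRNA:CR45354 (non-coding, chr2L:16534237-16534266, plus strand): tcgttagccgaGTGGGCGgtacattggggg
lncRNA:CR42746 (non-coding, chr2L:12543410-12543439, plus strand): ggcgcctacaaGTGGGCGggacggggtggg
raw (coding, chr2L:8734517-8734546, plus strand): attgagggtgcGTGGGCGggcgtatagcat
JIL-1 (5′ UTR, chr3L:11092333-11092362, plus strand): tgtgtgtgtgaGTGGGTGgatctggatggg
pico (5′ UTR, chrX:19851414-19851443, plus strand): ccaggcgttgcGTGGGCGaacgtaggggag
CG6340 (3′ UTR, chrX:15484792-15484821, minus strand): tgagtgagtgaGTGGGTGgatgggtgggtg
The middle of the core lay between 2 and 18 bp from the summit in these 9 peaks, 10 bp from it at Vrp1 and 47 bp from it at otp. At Ask1, lncRNA:CR45054, raw and pico the bases gc stand just before the core, as in the longer EGR consensus.

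The exonic share was close to constant between libraries and below the share of the genome that exons take up. In the libraries' own thresholded lists, which held 2751, 1678 and 3008 peaks on the arms for replicates 1, 2 and 3, exonic peaks numbered 201, 128 and 202. That was 7.31%, 7.63% and 6.72% of each list, a mean of 7.22% ± 0.462 (SD, n = 3). Bases that meet the same rule made up 20.8% of the arms. Coding exons held 2.80% of the joint peaks and 14.1% of the arm bases, and 3′ UTRs 1.34% of the peaks and 4.52% of the bases. The 5′ UTRs and the non-coding exons ran the other way, with 0.990% of the peaks and 0.616% of the bases in the 5′ UTRs, and 2.30% of the peaks and 1.60% of the bases in the non-coding exons. A share below that of the bases was not particular to exons. Intergenic sequence over 500 bp from a TSS held 525 of the 4041 joint peaks and 27.8% of the arm bases. Introns over 500 bp from a TSS held 41.8% of the peaks and 39.9% of the bases. Sequence within 500 bp of a protein-coding TSS held 37.8% of the peaks and 11.5% of the bases. These are shares without a test.

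The 500 bp limit counts only protein-coding genes, so peaks in non-coding exons could stand near the start of a non-coding gene. This start was not always that of the host gene, as at lncRNA:Vinr, where it was that of lncRNA:CR44619. Of the 93, 61 were within 500 bp of the TSS of some gene, and 16 within 100 bp. Among the other classes a TSS of some gene lay within 500 bp for 1 of 113 coding and 2 of 54 3′ UTR peaks, and for none of the 40 5′ UTR peaks. The non-coding host exons had a median length of 747 bp, so much of their sequence lies near a start. The same share over all bases of non-coding exons was not computed. Measured to protein-coding genes alone, the median distance to a TSS was 1982 bp over all 300, 764 bp in 5′ UTRs, 1514 bp in coding exons, 2035 bp in 3′ UTRs and 3467 bp in non-coding exons. Members just inside the limit were in salr, at 501 bp with a signal of 105, and in CG15247 and Fbl6, both at 502 bp with signals of 181 and 164. Exonic peaks just outside it were in CG1840, at 496 bp with a signal of 92.1, and in frac, at 492 bp with a signal of 173.

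The peaks occupied exons of 278 host genes and spread over all the large arms, with 59 on 2L, 58 on 2R, 58 on 3L, 74 on 3R and 51 on X, and none on 4. Coding members lay mostly in internal exons, 65 of 113, while 43 of 54 3′ UTR members lay in the last exon and 26 of 40 5′ UTR members in the first. Exons were numbered in the longest host-gene transcript whose sequence of that class covered the summit. The same shares over all sequence of each class were not computed, so these counts only describe the members. Non-coding members lay in single-exon genes in 63 of 93 cases. The whole window of 100 bp on each side of the summit fitted inside the exon for 220 of the 300. For 95 of the 300, 31.7%, the summit was also intronic in another transcript or gene. This applied to 22 of 40 peaks in 5′ UTRs, 37 of 93 in non-coding exons, 24 of 113 in coding exons and 12 of 54 in 3′ UTRs.

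The strongest exonic peak lay at chr2L:14023947-14024248 in the single exon of lncRNA:CR31840, 33 bp from that gene's start. Its joint signal was 698, rank 21 of the whole list, and no EGR core was found within 100 bp. Its signals were 215, 213 and 263 in replicates 1, 2 and 3 (mean 230.3 ± 28.1, SD, n = 3). The signal is the authors' value for each peak, and ranks were taken within 1 list. Means and SDs over libraries describe the spread of the values as deposited. Over the members in each ranked list the median signal was 42.3, 34.5 and 45.7 in replicates 1, 2 and 3. A replicate that is highest or lowest at a peak may thus follow the scale of its library, which was not tested. Joint values lay close to the sum of the library values, with a median ratio of 0.988 (range 0.649 to 1.16) over the 234 members found in all ranked lists. How the authors made the joint value is not given in the sources used here.

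Next came a coding exon of Vrp1, the fly verprolin, which binds actin regulators and acts in muscle fusion. Vrp1 had signals of 169, 165 and 226 in replicates 1, 2 and 3 (187 ± 34.0, SD, n = 3) at chr2R:22111282-22111542, in exon 4 of 10, with a core 10 bp from the summit. The last exon of otp, which encodes a homeodomain factor, had 157, 166 and 202 (175 ± 23.9, SD, n = 3). The first exon of raw, a gene required in dorsal closure of the embryo, had 151, 141 and 176 (156 ± 17.8, SD, n = 3). In these 3 coding exons replicate 3 gave the highest value each time, and each window held 1 core. The raw summit was also intronic in another transcript.

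In 5′ UTRs the leading peak was that of Ask1, a kinase of stress signalling, at chr3R:19880653-19880949. Its signals were 186, 196 and 184 in replicates 1, 2 and 3 (189 ± 6.67, SD, n = 3). JIL-1, a kinase that phosphorylates histone H3, had 116, 107 and 139 (121 ± 16.3, SD, n = 3), and lay only 503 bp from a JIL-1 TSS. The gene pico, whose product links Ras-like signals to actin, had 128, 100.3 and 125 (118 ± 15.3, SD, n = 3). Each of the 3 windows held 1 core, and the summits of Ask1 and JIL-1 were 16 and 12 bp from it. The Ask1 summit was also intronic in another transcript.

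The 3 strongest 3′ UTR peaks had lower joint signals, 333 and less, than the 3 strongest of each other class. CG6340 had signals of 119, 86.6 and 119 in replicates 1, 2 and 3 (108 ± 18.9, SD, n = 3) and stas had 149, 68.6 and 119 (112 ± 40.5, SD, n = 3). APC7, a subunit of the anaphase-promoting complex, had 88.6, 91.7 and 133 (105 ± 25, SD, n = 3). Only CG6340 held a core. The order among these peaks differed between libraries, with stas highest in replicate 1 and APC7 highest in replicates 2 and 3. The CG6340 and stas summits were also intronic in another transcript.

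Exons of non-coding genes held 93 of all 300 members. Of the 12 strongest members, 7 lay in long non-coding RNA genes. After lncRNA:CR31840, these were lncRNA:CR45054 with 197, 152 and 207 in replicates 1, 2 and 3, and lncRNA:CR44331 with 182, 167 and 192. The first of these lay 1582 bp from the start of mir-317, and the second held 4 cores in its window. Further down, lncRNA:CR45354 had 177, 151 and 198, and lncRNA:CR42746 had 156, 138 and 215. The remaining pair, lncRNA:Vinr with 93.1, 122 and 217 and lncRNA:CR46035 with 99.9, 91.4 and 209, held no core, and their SDs of 64.5 and 65.3 were the largest of the 16 named peaks. In both, replicate 3 alone was high. The nearest TSS of any gene lay 33 bp from the summit at lncRNA:CR31840, 417 bp at lncRNA:CR44331 and 219 bp at lncRNA:CR45354. It lay 242 bp away at lncRNA:CR42746, 393 bp at lncRNA:Vinr and 722 bp at lncRNA:CR46035. The summits of lncRNA:CR44331, lncRNA:CR42746 and lncRNA:CR46035 were also intronic in another transcript.

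**Figure D1:**
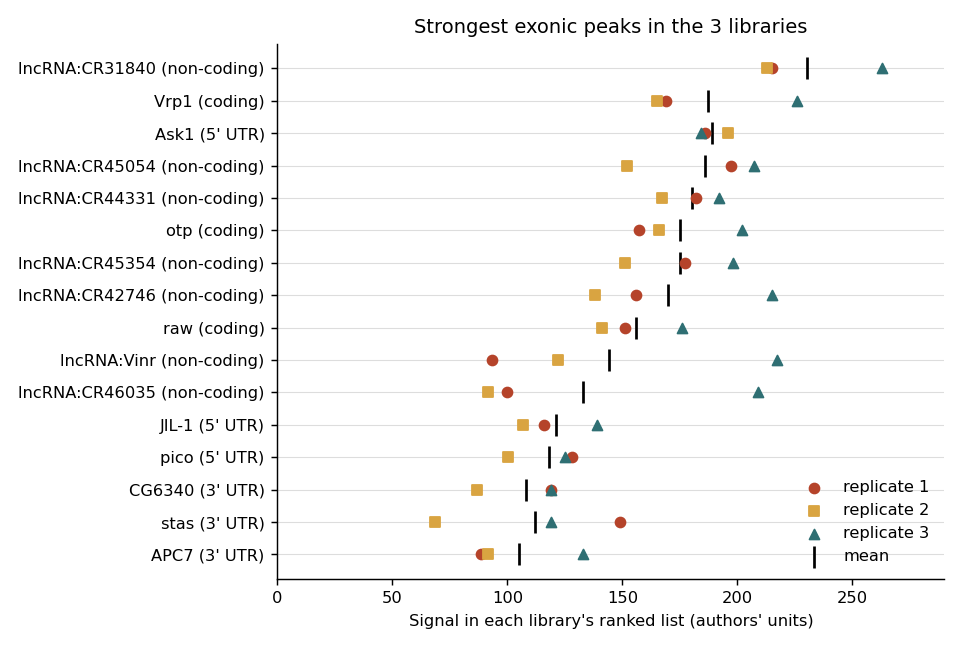
Signal of the 16 named exonic peaks in each library's ranked list (authors' units, linear axis), with the mean as a bar. Replicates 1 and 2 lie close together at lncRNA:CR31840 (215 and 213), and replicate 3 stands apart at lncRNA:Vinr (217) and lncRNA:CR46035 (209).

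Across all 300, joint signals ran from 2.45 to 698, with a median of 112 against 118 for the 1690 intronic and 114 for the 525 intergenic peaks that also lay over 500 bp from a TSS. A signal above the median of the whole list was held by 145 exonic peaks, 48.3%, against 52.0% of intronic peaks, a difference of -3.62 percentage points (95% interval -9.70 to 2.5; Fisher's exact test, two-sided, adjusted p = 0.454). Against the intergenic 49.3% it was -1.0 points (-8.04 to 6.07; Fisher's exact test, adjusted p = 0.828). In the libraries' own lists the exonic share above the median was 48.3% ± 0.961 and the intronic one 49.6% ± 0.917 (SD, n = 3 each). In the authors' longest joint list, of 5032 peaks, the gap to intronic peaks was -7.37 points and passed the test (Fisher's exact test, adjusted p = 0.0112). Over 11 alternatives to the main analysis this gap ran from -7.37 to 3.79 points, so its sign was not constant. Only the longest list passed. Peaks are not replicates, all classes come from the same 3 libraries, and adjustment is over 7 contrasts.

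Peaks in 5′ UTRs had the highest median joint signal of the exon classes, 142, against 112 in non-coding exons, 109.6 in coding exons and 99.8 in 3′ UTRs. Of the 40, 29 were above the median of the whole list, 72.5% (Wilson interval 57.2 to 83.9). The order differed between libraries. Over members found in every ranked list, the 5′ UTR median was 51.2, 37.0 and 59.0 in replicates 1, 2 and 3, and the non-coding median 46.5, 37.9 and 50.8. The coding medians were 44.4, 31.4 and 42.1 and the 3′ UTR medians 37.9, 32.9 and 49.3. The 5′ UTRs led in replicates 1 and 3 and came just below the non-coding exons in replicate 2, the library with the shortest list.

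**Figure D2:**
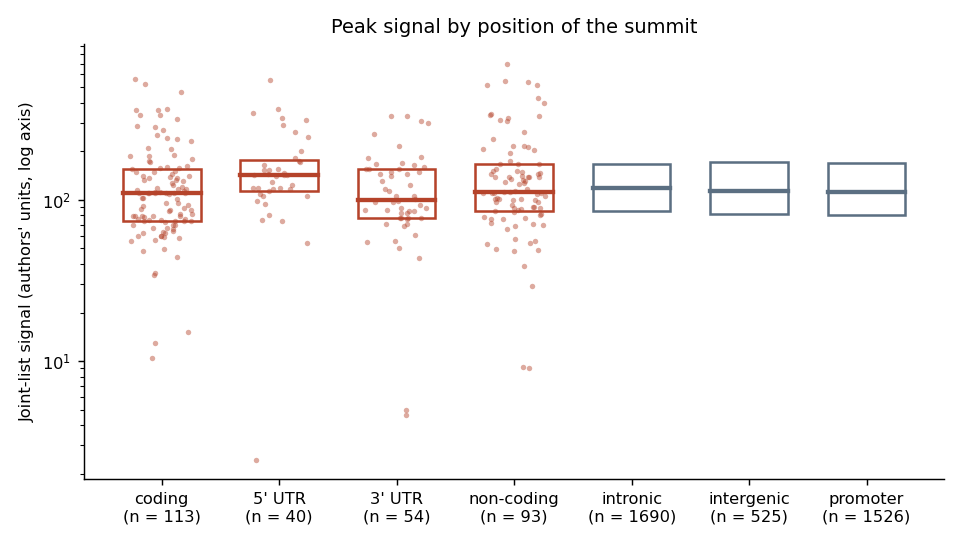
Joint-list signal (authors' units, log axis) of the exonic peaks as points by class, with the median and the interquartile range as a box. Intronic, intergenic and promoter peaks are shown as boxes only, and the 5′ UTR median of 142 is the highest.

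A summit in the thresholded lists of all 3 libraries, within 100 bp, was found for 82 of the 300 exonic peaks, 27.3%. For intronic peaks the share was 28.5% and for intergenic peaks 30.7%. The differences were -1.19 points (-6.41 to 4.52; Fisher's exact test, adjusted p = 0.828) and -3.33 points (-9.58 to 3.19; Fisher's exact test, adjusted p = 0.477). A further 67 exonic peaks were in 2 lists, 62 in 1 and 89 in none. Replicate 2 listed 106 of the 300, replicate 1 listed 165 and replicate 3 listed 171. The intervals of the ranked joint list were identical to entries of replicate 1 and replicate 3 in 68.7% and 67.6% of cases, and to none of replicate 2. Support followed signal closely. Where a peak was in all ranked lists, its joint signal lay close to the sum of the library signals. Signal and support are therefore not independent measures. Of the 60 exonic peaks with the highest signal, 56 were in all 3 lists, and of the 60 with the lowest none was. In the ranked lists, which are not thresholded, 234 of the 300 had a summit in every library and 5 had none.

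Some of the weakest members stood beside a stronger peak. All 8 with a joint signal under 20 had a stronger summit within 250 bp, and 2 more did. The 10 distances ran from 199 to 219 bp. In PNUTS, which encodes a subunit of protein phosphatase 1, a peak of 12.9 lay 211 bp from one of 60.1. In dock, an SH2 and SH3 adaptor of axon guidance, a peak of 2.45 lay 212 bp from one of 75.3. None of the 10 was in any thresholded library list. A stronger summit within 250 bp was also found for 39 of 1690 intronic and 19 of 525 intergenic peaks. In the whole list it was found for 105 of 4041. Whether each pair marks separate sites was not tested.

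The EGR core stood in 158 of the 300 exonic windows, 52.7% (Wilson interval 47.0 to 58.2). In all windows of that length centred on exonic bases that meet the rule, it was present in 8.06%. In windows 1000 bp to the right of the same summits it was present in 21, 7.0%. At 142 peaks the core was found only at the summit and at 5 only in the flank (exact two-sided sign test, p = 6.20e-36). In the libraries' own exonic peaks the share was 54.7%, 60.2% and 55.0% in replicates 1, 2 and 3 (56.6% ± 3.09, SD, n = 3).

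Coding exons held the core most often. It was found in 76 of 113 coding windows, 67.3% (58.2 to 75.2), in 30 of 54 in 3′ UTRs, 55.6% (42.4 to 68.0), in 20 of 40 in 5′ UTRs (35.2 to 64.8), and in 32 of 93 in non-coding exons, 34.4% (25.5 to 44.5). Genome windows of the same classes held it in 9.24%, 4.80%, 7.55% and 7.09%, in that order. Each class exceeded its right flank by the exact sign test, with 68 against 2 peaks in coding exons (p = 4.21e-18), 28 against 1 in 3′ UTRs (p = 1.12e-07), 20 against 0 in 5′ UTRs (p = 1.91e-06) and 26 against 2 in non-coding exons (p = 3.03e-06). The median host exon was 928 bp long, and 656 bp for coding members, so a flank 1000 bp away often lay outside it. Flanks were not matched to the exon class or to base composition.

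Between classes, coding windows exceeded the other exonic windows, of which 43.9% held a core, by 23.4 points (95% interval 11.8 to 34.0; Fisher's exact test, two-sided, adjusted p = 5.90e-04). Exonic windows as a whole exceeded intergenic ones, 210 of 525, by 12.7 points (5.60 to 19.6; Fisher's exact test, adjusted p = 0.00166), and intronic ones, 44.3%, by 8.41 points (2.28 to 14.5; Fisher's exact test, adjusted p = 0.0191). Each library's own list gave the same direction. Coding exceeded other exonic peaks by 21.9 points ± 2.12, exonic exceeded intergenic peaks by 15.7 ± 2.85 and exonic exceeded intronic peaks by 9.68 ± 3.27 (SD, n = 3 each). With 3 libraries an exact sign-flip test cannot go below p = 0.25. The contrast with intronic peaks did not pass when only peaks listed by both other libraries were kept, at 9.95 points without replicate 2 (Fisher's exact test, adjusted p = 0.103) and at 12.5 points without replicate 3 (adjusted p = 0.0674).

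**Figure D3:**
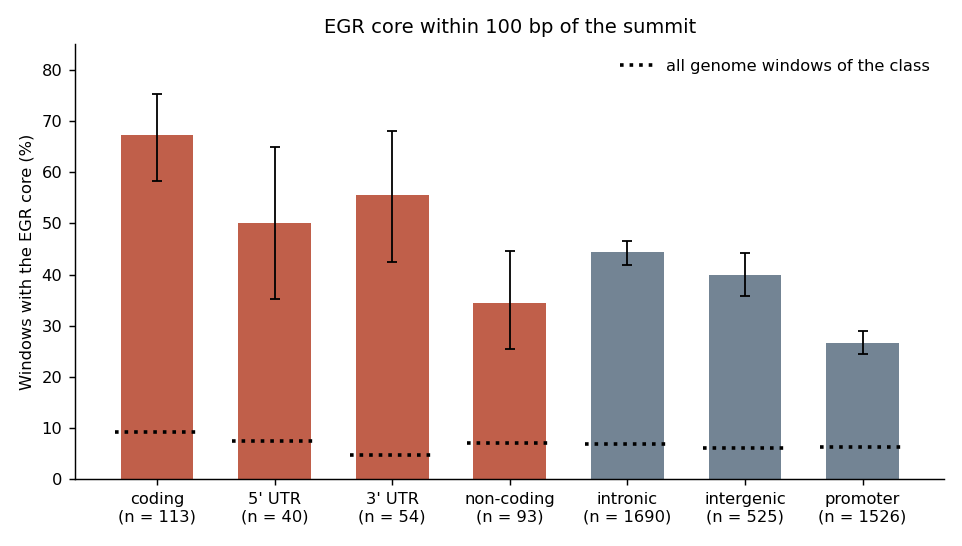
Share of peaks with the EGR core within 100 bp of the summit (percent), by class, with 95% Wilson intervals. Dotted lines give the share in all genome windows of the class, which is 9.24% for coding exons, against 67.3% of the coding peaks.

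Base composition moved with these differences. The windows of the exonic peaks averaged 51.8% ± 8.98 G and C (SD, n = 300), against 46.1% ± 7.22 for the intronic peaks (n = 1690) and 46.7% ± 7.65 for the intergenic ones (n = 525). Coding windows averaged 58.6% ± 6.79 (n = 113) and the other exonic windows 47.7% ± 7.56 (n = 187). Among windows of 50 to 60% G and C, a restriction added after seeing the data, 56.2% of 121 exonic, 54.0% of 526 intronic and 52.4% of 187 intergenic peaks held the core. There the differences were 2.21 points against intronic (Fisher's exact test, adjusted p = 0.686) and 3.79 points against intergenic peaks (adjusted p = 0.652). Coding windows held it in 60.4% and other exonic windows in 52.9%, a difference of 7.44 points (Fisher's exact test, adjusted p = 0.648). All 3 calls were thus lost within this range.

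Windows of 60% G and C or more were common in coding exons and rare elsewhere. They made up 50 of the 113 coding peaks and 31 of the 1690 intronic peaks, and the core was present in 80.0% of these coding windows (67.0 to 88.8) and 54.8% of these intronic ones (37.8 to 70.8). Under 40%, 3 of 28 exonic and 70 of 362 intronic windows held it. In genome windows of 50 to 60%, the core was present in 10.4% of exonic, 10.1% of coding and 16.2% of intronic positions.

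**Figure D4:**
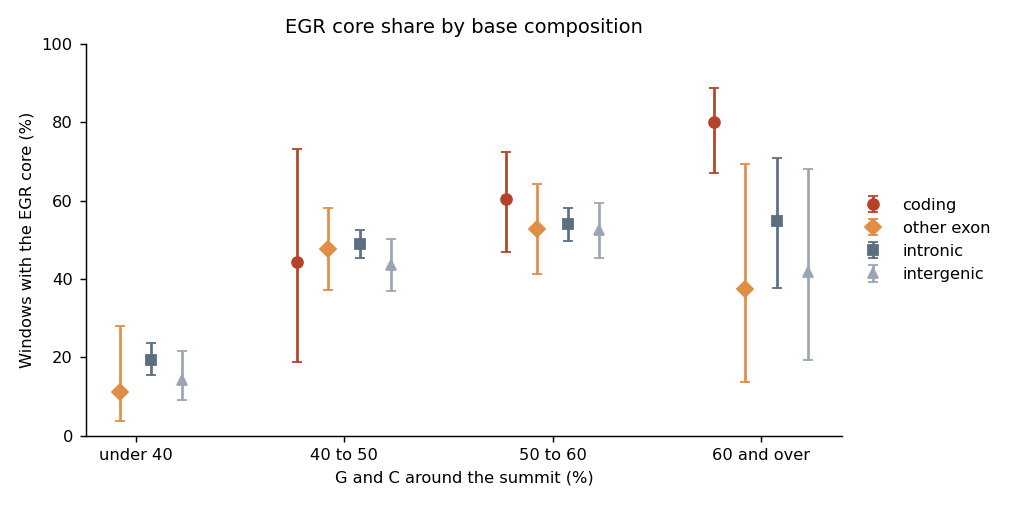
Share of peaks with the EGR core (percent) by the percentage of G and C in the window around the summit, with 95% Wilson intervals, for coding, other exonic, intronic and intergenic peaks. Points of fewer than 5 peaks are left out. In the range of 50 to 60% the 4 values are 60.4%, 52.9%, 54.0% and 52.4%, and their intervals overlap.

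The core lay close to the summit. Its middle was a median of 14.0 bp away in the 158 exonic windows, against 19 bp in 748 intronic and 18 bp in 210 intergenic windows. It was within 50 bp in 135 of the 158, 85.4%, and in 85.4% of the intronic windows as well. Coding exons had the shortest median, 12.5 bp, with 69 of 76 within 50 bp. No test was made of these distances.

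**Figure D5:**
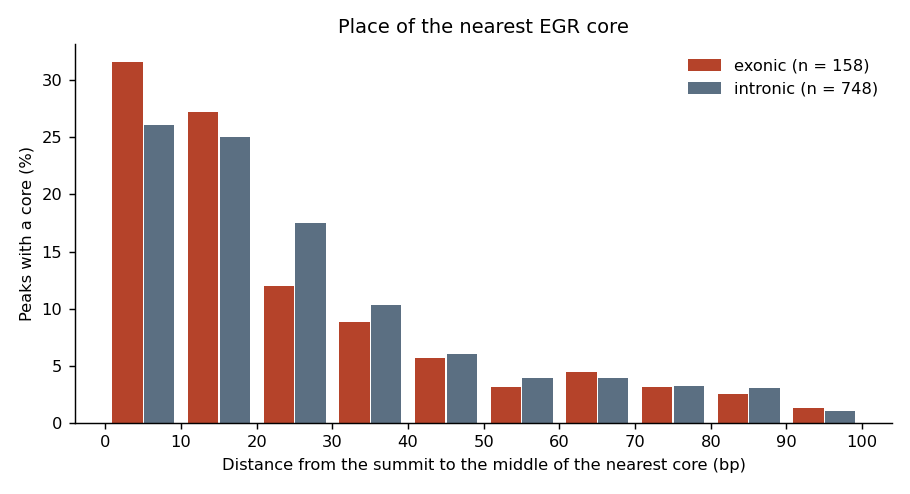
Distance in bp from the summit to the middle of the nearest EGR core, in steps of 10 bp, as a percentage of the 158 exonic and 748 intronic peaks with a core. The first step holds 31.6% of the exonic peaks and 26.1% of the intronic peaks.

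The variant with C, GTGGGCG, was the nearest core in 56 of 76 coding windows, 73.7%, and in 45 of 82 other exonic windows, 54.9%. In intronic windows it was 56.7%. More than 1 core was present in 53 of the 158 exonic windows, 25 of them coding.

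Most exonic cores lay on the strand opposite to the gene. Of 156 exonic peaks with a core in genes of 1 strand only, the core nearest to the summit read antisense in 113, 72.4% (64.9 to 78.8). Of 729 intronic peaks counted in the same way, 367 were antisense, 50.3% (46.7 to 54.0). In the libraries' own lists the exonic share was 68.8%, 66.2% and 71.8% in replicates 1, 2 and 3, and the intronic share 52.4%, 54.1% and 52.3%. All cores in exonic sequence of the genome, bound or not, were also skewed, with 61.5% antisense, against 51.8% of those in introns. By class the peaks were antisense in 74.3% of 74 coding, 83.3% of 30 3′ UTR, 68.8% of 32 non-coding and 55.0% of 20 5′ UTR windows. The genome's own cores were antisense in 59.0%, 75%, 60.9% and 72.2% of cases in those classes, in that order. The 5′ UTR peaks were thus the only class below the share of the genome, on 20 windows. These shares were not tested.

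Within coding sequence the core's place in the codons could be read for 72 peaks whose nearest core lay whole in 1 coding exon. Positions are given on the gene's strand, from the first base of the 7. The core read antisense with that base at the second codon position in 30, antisense at the third in 22 and sense at the first in 17. The remaining 3 were antisense at the first, 2 peaks, and sense at the third, 1 peak. Of 9826 cores in coding sequence over 500 bp from a TSS, taking 1 transcript per gene, 34.5% were antisense at the second position, 20.2% antisense at the third and 32.4% sense at the first. The corresponding shares of the 72 peaks were 41.7%, 30.6% and 23.6%. The frames used by peaks were thus those common in the coding genome, with a lower sense share.

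The core was most frequent in the exonic peaks with the broadest support. It was present in 58 of the 82 found in all 3 libraries, 70.7% (60.1 to 79.5), in 30 of 67 found in 2, 26 of 62 found in 1 and 44 of 89 found in none, 49.4% (39.3 to 59.6). It stood in 38 of the 60 exonic peaks with the highest signal, 63.3%, and in 24 of the 60 with the lowest, with mean G and C of 51.2% and 53.3%. Among intronic peaks the share was 56.6% in all 3 libraries and 37.0% in none.

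Several genes held more than 1 exonic peak. There were 20 such genes, 13 of them protein-coding, with 41 peaks in all, a summit in overlapping exons being counted for each gene. The most, 5, were in lncRNA:CR43334, a single-exon transcript of 15466 bp at chr3L:628435-643900 that contains mir-ban, the bantam microRNA gene, whose product promotes growth and blocks cell death. Their joint signals were 112, 263, 213, 139 and 81.2 in order along the gene, and the summits lay between 5623 and 16251 bp from the nearest protein-coding TSS. The strongest had signals of 90.7, 60.8 and 77.0 in replicates 1, 2 and 3 and held no core. The peaks with joint signals of 213 and 139, with cores 11 and 0 bp from the summit, were listed by all 3 libraries, as was the one of 112.

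The lncRNA:CR43459, which contains mir-277 and mir-34, held 2 peaks with joint signals of 321 and 109.7, each with a core. The stronger had 123, 97.3 and 109 in replicates 1, 2 and 3. On X, the overlapping genes lncRNA:Vinr and lncRNA:CR44619 held 4 summits within 3597 bp, 3 of them in the exon of lncRNA:Vinr and 2 in exons of lncRNA:CR44619, with 1 in both. None of the 4 had a core, and their G and C ranged between 30.8% and 40.8%. In all 4, replicate 3 had the highest signal. The summit in both genes had 60.7, 96.2 and 165 in replicates 1, 2 and 3. The lncRNAs CR43644 and CR45303 and asRNA:CR44375 held 2 peaks each, and in the first pair of genes the weaker peak stood about 200 bp beside the stronger. Both summits of asRNA:CR44375 were also intronic in another transcript.

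Among protein-coding genes, Hr4, a nuclear receptor of the ecdysone response, had 1 peak in the coding part of its last exon and 1 in its 3′ UTR. The coding one, with 3 cores, had 59.6, 28.8 and 56.2 in replicates 1, 2 and 3, and the 3′ UTR one, with none, had 51.5, 43.8 and 49.3. Pde8, a cyclic nucleotide phosphodiesterase, likewise had a coding peak with 64.3, 55.5 and 83.4 and a weaker 3′ UTR peak that had 38.4 in replicate 1 and 44.0 in replicate 3 and was not in the ranked list of replicate 2. Both Pde8 windows held cores. The gene cic, which encodes the repressor Capicua that EGFR signalling relieves, had a 5′ UTR peak without a core, at 29.2 and 75.9 in replicates 1 and 3, and a coding peak with a core, at 36.1, 35.0 and 34.3. In stas both peaks were in the 3′ UTR, with joint signals of 331 and 169. CG34398 and CG32066 had 2 coding peaks each, all 4 with a core, and the pair of coding peaks of CG2962, which also lay in exons of ATPsyndelta, had none. The pairs in Abp1, CG3308, CG7342, PNUTS and dock were the ones about 200 bp apart. Both stas summits, the coding summit of Pde8 and the 5′ UTR summit of cic were also intronic in another transcript. So were the weaker summit of CG34398 and the stronger summit of dock.

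Of all protein-coding genes on the arms, 1.44% had an exonic peak, 201 of 13945, and of the ncRNA genes 2.58%, 84 of 3261. None of the 12 tendon genes had one, sr included. Of 21 genes of integrin adhesion, by which tendon and muscle hold to the matrix, 4 had one. Of 28 somatic muscle genes 3 had one, of 17 genes of the EGFR pathway 1, of 15 matrix genes none, and of 93 cytoplasmic ribosomal protein genes 1. The lists were chosen with earlier results of these data known, and the length of the exons was not taken into account. The rule left out sequence within 500 bp of protein-coding TSSs only. The shares of protein-coding and ncRNA genes are therefore not directly comparable.

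Among the integrin adhesion genes, Pax, the focal adhesion adaptor paxillin, had a coding peak with a core 9 bp from the summit, at 61.0, 44.3 and 38.4 in replicates 1, 2 and 3. The gene by, which encodes tensin, had a 3′ UTR peak without a core, at 37.0, 25.8 and 80.6, where replicate 3 was over the others. CAP, a vinculin-binding adaptor, had a 5′ UTR peak without a core, at 43.6, 34.8 and 48.4. Fit1, one of the fly kindlins that activate integrins, had a coding peak with a core 11 bp away, at 26.4, 15.3 and 30.3, in no thresholded list. Replicate 2 was the lowest of the libraries at by, CAP and Fit1, and replicate 3 at Pax. The Pax and CAP summits were also intronic in another transcript.

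In the muscle list, Mef2, the central muscle transcription factor, had a 5′ UTR peak without a core, at 50.2, 51.3 and 59.4 in replicates 1, 2 and 3, present in all 3 thresholded lists. The titin-like gene sls had a 3′ UTR peak without a core, at 61.6, 50.7 and 43.5. TpnC73F, a troponin C, had a 3′ UTR peak with 2 cores, at 32.8 and 42.4 in replicates 1 and 3. The Mef2 and sls summits were also intronic in another transcript. For the EGFR pathway, aop, the ETS repressor Yan, had a 5′ UTR peak with a core 24 bp away, at 50.7, 30.9 and 64.3. RpL18 had a coding peak with a joint signal of 59.7, rank 3750, in no thresholded list.

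The spacing of the exonic peaks was not tested. The next peak of the list was a median of 3204 bp away, against 2691 bp for intronic and 2884 bp for intergenic peaks, and 26.0% had another within 1000 bp, against 25.3% and 28.6%.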

How the data were processed

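Per the labels, chromatin of 3 biological replicates was sheared by sonication to 200 to 800 bp. The authors deposited, on dm6, peak lists made with the irreproducible discovery rate (IDR). Each peak's signal is deposited without a stated normalization. In the ranked joint list that the authors deposited, every peak used had a −log10 global IDR of 2 or more. Which aligner and caller were used is not given in the sources used here. Per the deposited notes, the libraries had 1 control file in common, whose reads were not analysed here. Read depth is unknown, so the number of peaks sets the precision, and Wilson 95% intervals cover counting error only.

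Summits were classed with Ensembl release 115, in the order coding, 5′ UTR, 3′ UTR and non-coding, on the same assembly, and sequence came from RefSeq Release 6 of the genome. Cores were sought on both strands. A library's summit within 100 bp counted as its own, and its signal was read from its ranked list. Shares were compared by Fisher's exact test with Benjamini-Hochberg adjustment over 7 contrasts, and core against flank by an exact sign test (scipy 1.17.1, Python 3.11.15). The core search and the Fisher test were tested on simulated data. Alternatives covered the list, the threshold, the promoter, motif and support windows, the flank, alternative exons and each left-out replicate.

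Named peaks are the 12 with the highest joint signal, the top 3 of each exon class, those in genes with 2 or more, those in the gene lists and those beside the 500 bp limit. The members, lists and tests were chosen with earlier results of these data known.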

Additional observations from a re-analysis of the deposited data

How the results depend on the processing

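Of 117 recomputed values, 104 kept their side of the threshold, or stayed within the interval of the reported share. Contrasts that had passed also kept their direction in these. Contrasts that had not passed counted as kept when they again did not pass, whatever their sign. Against intergenic peaks, the difference in the share above the median signal ran from -5.27 to 7.29 points. The exonic share was 8.35% in the longest joint list, 9.40% and 5.22% with promoter windows of 250 and 1000 bp, and 5.84% with the TSSs of all genes. The core contrast of exonic with intronic peaks was 7.13 points at a global IDR of 0.001 (Fisher's exact test, adjusted p = 0.197) and 7.41 points with the 1000 bp window (adjusted p = 0.107). Each replicate was left out by keeping only the joint-list peaks that both other libraries listed, and the joint list itself was not remade. The contrast was then 9.95 to 14.5 points (Fisher's exact test, adjusted p = 0.0239 to 0.103). That with intergenic peaks was 9.08 points at a global IDR of 0.001 (Fisher's exact test, adjusted p = 0.197). Both rested on 172 exonic peaks there. In windows of 50 to 60% G and C, added after seeing the data, the contrasts with intronic, intergenic and other exonic peaks were 2.21, 3.79 and 7.44 points, none passing. The signal contrast with intronic peaks was -7.37 points in the longest list (Fisher's exact test, adjusted p = 0.0112), and the cause was not tested. The same contrast was 0.152 points at a global IDR of 0.001 and 0.373 to 3.79 points with each replicate left out, none passing. The core share in members passed its sign test in all 14 alternatives. Leaving out peaks within 250 bp of a stronger one, also added after seeing the data, changed no call. With depth unknown, a peak missing from a library's thresholded list cannot be called absent there. No paired analysis was possible because there was no second group whose libraries could be paired with these; classes were compared within each library.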

Other observations

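Of the peaks in non-coding exons, 6 lay in genes not named as long non-coding or antisense RNAs, and they are listed here after their values were seen. The snRNA gene snRNA:7SKa, whose RNA holds back a transcription elongation factor, had signals of 56.6, 34.5 and 50.5 in replicates 1, 2 and 3. The spliceosomal gene snRNA:U1:95Ca had 50.5 and 36.1 in replicates 1 and 3, and tRNA:Cys-GCA-1-1 had 66.3, 14.7 and 25.8. The snoRNA:Me18S-C1968 had 23.4 and 30.2 in replicates 1 and 3. RNaseMRP:RNA, the RNA part of an RNA-cutting enzyme, had 25.5 and 39.2 in replicates 1 and 3, and mir-4962 had 35.9 and 34.6. The peaks of snoRNA:Me18S-C1968, RNaseMRP:RNA and mir-4962 were in no thresholded library list. That of tRNA:Cys-GCA-1-1 was in 1 list and those of the snRNA genes in 2 each. Apart from the snRNA genes, these summits were also intronic in another transcript. The window of RNaseMRP:RNA held 2 EGR cores, the nearer 5 bp from the summit, and those of the other genes named here held none. The coding exon with the most cores was in Hers, with 6 in the window and 39.4, 44.7 and 44.1 in replicates 1, 2 and 3. It was followed by tty with 5 cores and 145, 98.6 and 114.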
